A study of Drosophila melanogaster with 2 samples.

Results

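Peaks of the transcription factor Fer2 that lie just upstream of one protein-coding promoter, with no promoter facing the other way close by, made up 788 of the 2862 reproducible peaks of the series (27.5%, 95% Wilson interval 25.9 to 29.2). A peak was counted here when its summit, the point of highest signal, lay within 500 bp of the nearest protein-coding transcription start site (TSS) and upstream of it in the direction of transcription. A peak was left out when a protein-coding TSS of another gene on the opposite strand lay within 500 bp on the far side of the summit. The rule used position only, and no signal value. The 788 summits belonged to 771 start sites of 740 genes. The other reproducible peaks were 571 between divergent promoters, 238 at or downstream of the nearest start, and 1265 farther than 500 bp from any protein-coding start.

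The material was whole Drosophila melanogaster embryos at 6 to 24 h, from a transgenic line that stably expresses Fer2 with green fluorescent protein (GFP) at its C-terminal end. Chromatin was precipitated and sequenced (ChIP-seq). The labels disagree on the antibody: their description says that it was against GFP, while their antibody field names Fer2, so whether untagged Fer2 could also be precipitated is not settled here. The 2 biological replicates, numbered 3 and 2 by the submitters, form 1 group. No untagged or input sample was analysed here, so no comparison of conditions was made and every value below describes one tagged line. Neither the promoter that drives the transgene nor the state of the native gene is given in the sources used here. In whole embryos, binding in fewer cells and less binding per cell cannot be told apart.

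Fer2, a relative of mammalian PTF1A, belongs to the basic helix-loop-helix (bHLH) proteins. Proteins of this class bind DNA as pairs, and the word they are known for is the E-box, CANNTG. In the fly, Fer2 is known for its part in a group of dopamine neurons and in clock neurons of the brain. A promoter is the DNA around a TSS where RNA polymerase is assembled. Fly promoters differ in their words: some carry a TATA box a short way before the start, others carry GAGA sites, bound by the GAGA factor, or the DNA replication-related element (DRE).

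The DNA at the summits of the strongest members is shown first, since later results turn on its base composition and its words. The lines below give the summit and 50 bases on each side of it for the 6 members of highest signal value whose window holds no annotated exon, taken outside 1 chromosome arm that is not printed. Each is written 5′ to 3′ in the direction in which the gene is transcribed, from the RefSeq Release 6 assembly (dm6). The windows are CG14100 (chr3L:19590563-19590663, minus strand), ph-p (chrX:2137294-2137394, minus strand), Gapdh2 (chrX:15867940-15868040, plus strand), CG1635 (chr3R:31588489-31588589, plus strand), CG18549 (chr3R:12449122-12449222, plus strand) and CG31145 (chr3R:23669804-23669904, minus strand). Capitals mark an E-box (CANNTG) or a TATA word (TATAAA), on either strand, so that TTTATA is the TATA word read on the other strand.
CG14100: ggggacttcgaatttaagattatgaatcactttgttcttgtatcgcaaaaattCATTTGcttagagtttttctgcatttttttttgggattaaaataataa
ph-p: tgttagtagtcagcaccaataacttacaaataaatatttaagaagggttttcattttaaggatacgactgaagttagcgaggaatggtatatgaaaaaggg
Gapdh2: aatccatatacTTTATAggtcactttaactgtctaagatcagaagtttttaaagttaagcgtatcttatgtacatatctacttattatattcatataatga
CG1635: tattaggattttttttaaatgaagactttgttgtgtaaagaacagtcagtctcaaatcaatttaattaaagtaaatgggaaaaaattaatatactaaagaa
CG18549: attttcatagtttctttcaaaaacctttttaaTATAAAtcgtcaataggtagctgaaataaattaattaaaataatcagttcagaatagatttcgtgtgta
CG31145: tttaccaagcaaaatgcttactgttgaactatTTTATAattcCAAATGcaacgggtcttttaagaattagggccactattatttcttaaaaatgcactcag

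Their GC content was between 21.8% and 32.7%. Of the 6 windows, 2 held an E-box, those of CG14100 and CG31145, in both cases the form CAAATG. The TATA word was present in 3 of them, at Gapdh2, CG18549 and CG31145, each more than 100 bp before the start of its gene.

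A contrasting set is formed by members close to the start of ribosomal protein genes. The 100 bases that end at the base before the TSS are given for the pair of highest signal value in that list, at RpL23A (chr3L:1668655-1668754, minus strand) and RpS28b (chrX:9554523-9554622, plus strand). These were chosen after their values were seen. Capitals mark the summit and 5 bases on each side of it.
RpL23A: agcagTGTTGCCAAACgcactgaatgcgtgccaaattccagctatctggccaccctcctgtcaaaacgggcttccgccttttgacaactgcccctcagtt
RpS28b: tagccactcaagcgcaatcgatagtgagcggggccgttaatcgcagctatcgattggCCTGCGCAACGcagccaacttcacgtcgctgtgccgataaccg

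In these the summit lay inside the promoter itself, 90 bp before the start of RpL23A and 38 bp before that of RpS28b. Their GC content was 54.0% and 58.0%. These windows are placed by the start, not by the summit, so the values are not like those above. At Gapdh2 the 100 bases before the start had 45.0%, against 24.8% in its window at the summit.

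The third set shows the GAGA word, which was more frequent in promoters with a member than in other single promoters (values follow further on). The same 100 bases are given for elav (chrX:523227-523326, minus strand), gish (chr3R:16280789-16280888, plus strand) and Ptpmeg2 (chrX:9640625-9640724, minus strand), chosen after their values were seen. For elav the TSS is the first start of the gene, and for gish and Ptpmeg2 it is a later one. Capitals mark GAGAG on either strand, overlapping copies joined.
elav: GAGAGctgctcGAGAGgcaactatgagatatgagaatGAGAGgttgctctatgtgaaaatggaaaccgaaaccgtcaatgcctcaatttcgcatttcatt
gish: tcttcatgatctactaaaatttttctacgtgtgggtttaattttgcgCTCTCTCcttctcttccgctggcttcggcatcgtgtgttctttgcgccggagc
Ptpmeg2: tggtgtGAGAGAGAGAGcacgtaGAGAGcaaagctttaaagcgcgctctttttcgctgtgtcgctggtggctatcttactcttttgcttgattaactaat

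Each peak carries a signal value, a score from the authors' peak caller of unstated scale, read here only as a rank or level inside 1 list. Members ran from 75.8 to 2295 with a median of 129 (quartiles 95.3 and 209). The median was 139 at divergent promoters, 121 at or past the start and 113 at distal peaks, and no test was made of these values. Members made up 6 of the 20 highest reproducible peaks, 36 of the highest 100 and 430 of the highest 1431. Their widths ran from 92 to 427 bp, and the median, 370 bp, was also the most common width of the list.

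The highest member lay 89 bp upstream of CG14100 (FBgn0036889, 3L 19590425 to 19590816), and its signal value was 1492 in replicate 3 and 820 in replicate 2. Next came mRpL41 (FBgn0034001, 2R 15217550 to 15217976), a mitochondrial ribosome gene. Its summit was 136 bp upstream, with 1352 in replicate 3 and 745 in replicate 2. Both peaks held the same place in each replicate list, rank 1 and rank 2.

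The member at ph-p, a gene of the Polycomb group that keeps developmental genes silent (FBgn0004861, X 2137185 to 2137552), had a signal value of 1267. It lay in an intron of ph-p itself, 489 bp upstream of a later start, with 847 in replicate 3 and 449 in replicate 2. In replicate 3 alone its summit was 503 bp from that start, just past the limit. The member 155 bp upstream of Gapdh2, which encodes a glycolytic dehydrogenase (FBgn0001092, X 15867788 to 15868172), had 607 in replicate 3 and 506 in replicate 2. The member at Ugalt, a UDP-galactose transporter gene (FBgn0024994, X 2703694 to 2704085), had 1040 in replicate 3 and 634 in replicate 2 and lay 25 bp before the start, the closest among the 20 highest members.

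The rest of the 20 highest members held signal values between 604 and 1008. In order they were CG1635, CG1888, CG18549, px, Fkbp14, eIF6, CG31145, Atf3, gish, Acsf2, amon, RapGAP1, RluA-1, larp and CG10413. Among them are genes of several kinds: px, a gene of wing vein patterning (885), eIF6, a factor of ribosome assembly (835), Atf3, a leucine zipper factor (717), gish, a casein kinase (650), amon, a prohormone convertase (624) and larp, an RNA-binding protein (610). Of the 20, 10 summits lay between genes and 8 inside the gene whose start they preceded. They lay 25 to 489 bp upstream with a median of 174 bp. The lowest rank among these 20 was 109 in replicate 3 and 87 in replicate 2, of 30000 peaks in each list. The highest member on chromosome 4 was at PlexA, which encodes a semaphorin receptor (FBgn0025741, 1027189 to 1027423, signal value 260). It had 191 in replicate 3 (rank 216) and 61.2 in replicate 2 (rank 1252), so the replicates ranked it far apart.

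Summits of members lay 1 to 498 bp upstream of the start, at a median of 178 bp (quartiles 111 and 267). Between divergent promoters the median distance to the nearer start was 107 bp (quartiles 80 and 140), a distance that the presence of a second start limits by construction. The first 100 bp held 168 members (21.3%) and the next 100 bp held 281 (35.7%). The following bands of 100 bp held 191 (24.2%), 92 (11.7%) and 56 (7.11%). The median signal value was 116 in the first band, 135, 144 and 135 in the next 3, and 107 in the last, differences that are small beside the quartiles within each band. Close to the limit, CG3348 was counted at 498 bp (signal value 156), and gce (96.0) and Btk (90.6) at 492 bp each. Just outside were CG3376 at 503 bp (86.8), CG43658 at 507 bp (90.8) and Srpk79D at 508 bp (82.6).

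**Figure D1:**
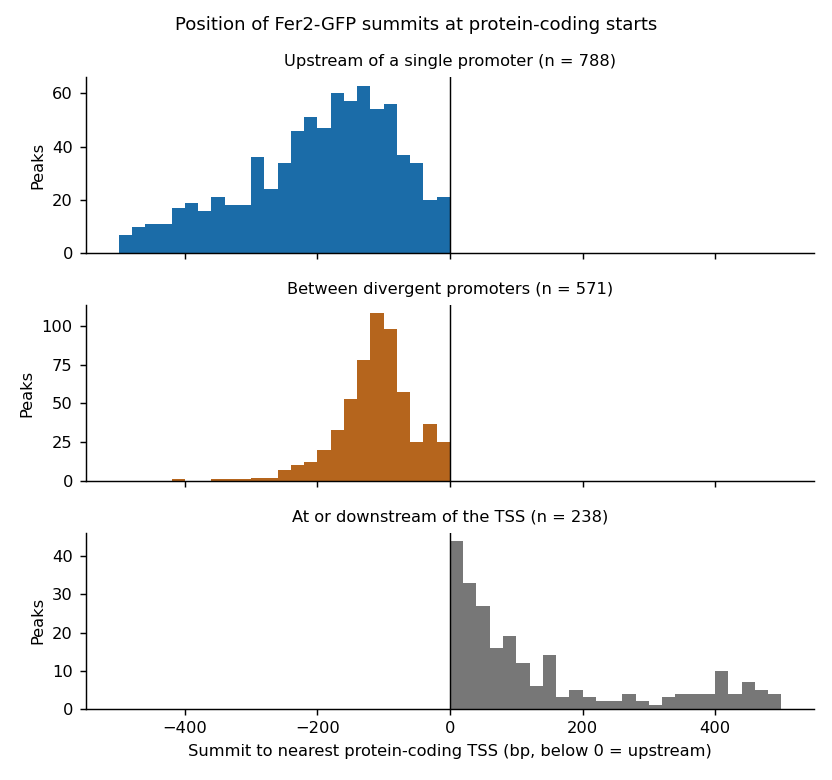
Position of peak summits relative to the nearest protein-coding TSS (x axis, bp, negative upstream) in 20-bp bins, as the number of peaks (y axis, a separate scale in each panel), for members (top), divergent promoters (middle) and peaks at or past the start (bottom). Members spread over the whole 500 bp with a median of 178 bp, while divergent summits cluster at a median of 107 bp.

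Both embryo collections placed nearly all members on the same side of the same start. A peak of replicate 3 overlapped 784 members by at least 1 bp (99.5%, 95% Wilson interval 98.7 to 99.8), and a peak of replicate 2 overlapped 786 (99.7%, 99.1 to 99.9). Both replicates covered 782 and 0 were covered by neither. The reproducible list is the top of a list pooled from both replicates, which favours such overlap. Only the 2862 highest peaks of each replicate were therefore used as well: those of replicate 3 overlapped 696 members (88.3%), those of replicate 2 overlapped 671 (85.2%), and 589 (74.7%) were reached by both. The summit of the replicate's own peak was a median of 15.0 bp from that of the member in replicate 3 (quartiles 3 and 37) and 21.5 bp in replicate 2 (quartiles 7 and 46). It lay upstream of the same start at 775 members in replicate 3 (98.9% of those overlapped) and at 763 in replicate 2 (97.1% of those overlapped). It was upstream and within 500 bp at 763 in replicate 3 and 754 in replicate 2. It was upstream in both, at any distance, at 753 (95.6% of all members). These counts use every peak of each replicate list. At 29 members a replicate's summit lay at or past the start, and 20 of these were among the 56 members within 50 bp of it.

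The members that 1 replicate lacked were few. Replicate 3 had no peak at Taf4 and TfIIA-S, which encode parts of the general transcription machinery, at Ptpmeg or at CG42837. Replicate 2 had none at l(3)psg2 or at dco, which encodes the clock kinase Doubletime. These 6 members had signal values of 85.5 to 173. Members ran from 11.3 to 1492 in replicate 3, with a median of 74.9, and from 8.25 to 820 in replicate 2, with a median of 60.5. The units of the replicate lists need not be the same scale. Across the 782 members found in both, signal values of the replicates correlated at a Pearson r of 0.75 on the log2 scale and a Spearman rho of 0.67. The members are not independent, since all were measured in the same libraries. Some of them share the same replicate peaks and so enter more than once. The replicates also share 1 control alignment.

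**Figure D2:**
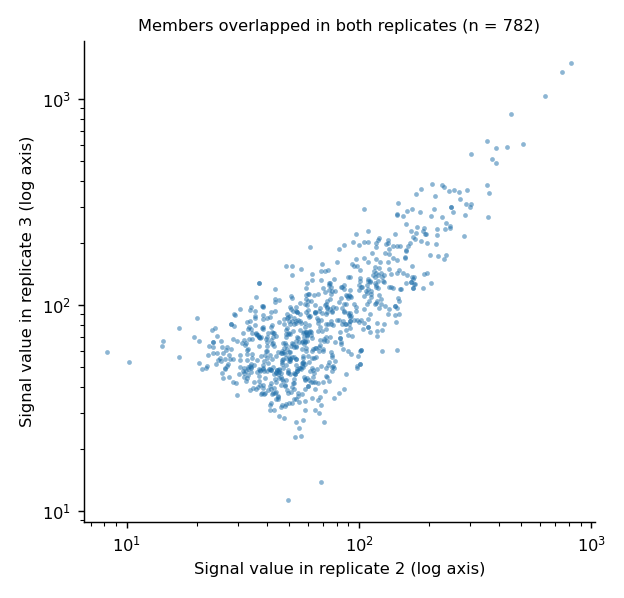
Signal value of each member in replicate 3 (y axis) against replicate 2 (x axis), both on log axes, in the authors' score units; each point is 1 of the 782 members that a peak of each replicate overlaps. The few highest points lie apart at the upper right, up to 1492 and 820, and most points form a broad cloud around medians of 74.9 and 60.5.

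Most members lay in the space between genes. Of the 788 summits, 454 (57.6%, 95% Wilson interval 54.1 to 61.0) were outside any annotated gene. A further 254 (32.2%, 29.1 to 35.6) lay inside the gene whose start they preceded, because that start was not the first of the gene. Another coding gene held 34 summits on the opposite strand and 25 on the same strand, and a non-coding gene held 21. By feature, 262 summits were in introns and 34 in a 5′ UTR. Coding sequence held only 2. Where the summit lay between genes, the neighbour upstream was transcribed in the same direction in 296 of 454 cases (65.2%, 60.7 to 69.4). The gap from the start to the neighbour was a median of 943 bp (quartiles 459 and 2932), 648 bp for a neighbour on the same strand and 1687 bp for one on the opposite strand. The clause on opposite starts within 500 bp takes close opposite neighbours out by construction.

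The name of single promoter held for most members on wider definitions. A non-coding transcript started on the opposite strand within 500 bp at 30 members (3.81%, 95% Wilson interval 2.68 to 5.38). An opposite protein-coding start lay within 1000 bp at 105 (13.3%, 11.1 to 15.9). Single refers to opposite promoters only. The genes often had several starts of their own: 45.7% of genes with a member had a single annotated start site, against 73.5% of all protein-coding genes, and the median was 2 sites for genes with a member, against 1 for all. A gene with more starts has more chances of a member under the rule. Several members lay at 39 genes. Rtnl1, an endoplasmic reticulum protein gene, had 5 at 4 starts, with a highest signal value of 472. Genes with 3 each were CG5004, Ptpmeg2, Svil, dnc, larp and spi, the last encoding an EGF receptor ligand.

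Members were spread over all chromosome arms. They fell at 5.31% of protein-coding genes on 2L, 5.43% on 2R, 5.26% on 3L, 4.88% on 3R, 5.78% on X and 7.50% on chromosome 4. The last value rests on 6 genes of 80.

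Among gene groups, glycolytic enzymes and cytosolic ribosomal proteins had a member most often, and at different distances from the start. Overall 740 of 13945 protein-coding genes had a member, or 5.31%, the background for every list below. Of 88 cytosolic ribosomal protein genes, 27 had one (30.7%, 95% Wilson interval 22.0 to 41.0). Of 15 glycolytic enzyme genes, 6 had one (40.0%, 19.8 to 64.3). Lists are described by their counts, without a test, and the intervals cover the counting of genes only.

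The 27 ribosomal protein genes had modest signal values, 79.3 to 338 with a median of 132, close to the median of 131 over the other 713 genes with a member, each gene counted at its highest. RpL23A (FBgn0026372, 3L 1668626 to 1668857) led with 338, or 208 in replicate 3 and 133 in replicate 2. RpS28b (FBgn0030136, X 9554469 to 9554689) had 230, or 158 in replicate 3 and 69.0 in replicate 2. RpL24 had 226 and RpS10b 217. Their summits were close to the gene. They lay a median of 40 bp before the start, and 25 of 27 (92.6%) were within 100 bp, against 140 of 713 (19.6%) for the other genes. GC content within 50 bp of the summit was 47.1% ± 8.38 (SD, n = 27 genes), against 32.2% ± 9.00 (SD, n = 713 genes) for the others. The distances differ too, and GC content changes with distance from the start. Over all promoters with a member its mean was 47.96% at 40 bp upstream and 32.79% at 180 bp upstream. Summits at equal distance were not compared. The sequences of RpL23A and RpS28b printed above are of this kind. At a summit this close to the start, the replicates could fall on either side: at RpS10b the summit of replicate 3 was 2 bp past the start and that of replicate 2 was 59 bp before it. How the authors treated reads that map to several places is not given in the sources used here, so values at genes with near-identical copies, such as RpS14b, are uncertain. Under other positions, 21 ribosomal protein genes were nearest to a divergent-promoter peak and 12 to a peak at or past the start, so that 60 of 88 had a reproducible peak within 500 bp of a start. The share of all protein-coding genes with any such peak is not given here. The 5.31% for members is not the background of this count.

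Glycolytic members had high signal values and lay farther upstream. Gapdh2 led, followed by Eno, the enolase gene (FBgn0000579, 2L 1727732 to 1728089), with a signal value of 503, or 217 in replicate 3 and 284 in replicate 2. Hex-A, a hexokinase gene (FBgn0001186, X 9585278 to 9585654), had 466, or 233 in replicate 3 and 235 in replicate 2. Ldh, the lactate dehydrogenase gene (FBgn0001258, 3L 6262735 to 6263062), had 396, or 205 in replicate 3 and 184 in replicate 2. The phosphoglycerate kinase gene Pgk had 222 and the pyruvate kinase gene PyK 117. Gapdh2, Eno, Hex-A and Ldh ranked 184 or better in replicate 3 and 148 or better in replicate 2. The median of the 6 genes was 431, and 0 of the 6 lay within 100 bp of the start. Their summits had a GC content of 28.1% ± 6.68 (SD, n = 6 genes). At PyK 2 overlapping members share the same replicate peaks, so they are not separate observations. Some members at other genes share replicate peaks in the same way.

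Factors of translation initiation and elongation had members at 8 of 58 genes (13.8%, 95% Wilson interval 7.16 to 24.9), with a median signal value of 124. After eIF6 the highest was eEF1gamma (FBgn0029176, 3R 29219969 to 29220276), an elongation factor subunit, at 360, or 193 in replicate 3 and 162 in replicate 2. Of the 8, 6 lay within 100 bp of the start, including eEF2 at 3 bp. At eEF2 the summit of replicate 3 was 30 bp before the start and that of replicate 2 was 32 bp past it. Heat shock chaperones had 4 of 26 (15.4%, 6.15 to 33.5): Hsp83 (312), Hsp27 (276), and with lower values Hsp26 and Hsp60A.

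Other groups of genes that all cells use had members at a share near the background or below it. Mitochondrial ribosomal proteins had 3 of 73 (4.11%), and of these mRpL41 was the one with a high signal value, since mRpL19 had 92.0 and mRpL4 84.6. With the highest peaks of replicate 3 alone the count was 1 of 73. Proteasome subunits had 2 of 48, Rpn11 (111) and Rpn12 (79.1), and 1 of 48 with the highest peaks of replicate 2 alone. Nuclear genes of oxidative phosphorylation had 1 of 87, ATPsynB (77.8). Cyclins and their kinases had 1 of 20, CycH (80.8). Aminoacyl-tRNA synthetases had 0 of 31, with a Wilson upper bound of 11.0%, and spliceosome Sm and small nuclear ribonucleoproteins 0 of 33, with an upper bound of 10.4%. In the spliceosome list, 8 genes were nearest to a divergent-promoter peak, a count whose share over all genes is not given here.

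Genes of the same class as Fer2 were among those with a member. Of 51 bHLH genes, 9 had one (17.6%, 95% Wilson interval 9.57 to 30.3), all between 128 and 492 bp upstream and with a median signal value of 107, below the members' median of 129. The highest was at trh, which encodes the bHLH-PAS factor of the trachea (FBgn0262139, 3L 377550 to 377860), with 286, or 128 in replicate 3 and 158 in replicate 2. The others were net (183), E(spl)m3-HLH (168), E(spl)m7-HLH (117), Fer2, gce (96.0), dysf (85.8), Mitf (79.2) and da (76.3), the last encoding the usual bHLH partner Daughterless. Using the highest peaks of replicate 3 alone, 4 bHLH genes had a member. An E-box lay within 50 bp of the summit at 4 of the 9.

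Fer2 itself, the tagged gene, had a weak member, named after its value was seen. Its summit lay 479 bp upstream of the start (FBgn0038402, 3R 16151606 to 16151975), with a signal value of 107 and rank 1744. It had 71.6 in replicate 3 and 59.5 in replicate 2. The summit of replicate 2 was 488 bp upstream and that of replicate 3 was 617 bp upstream, so only 1 replicate placed it within the limit. No E-box lay within 50 bp of the summit of the member. Whether the transgene contains this stretch of DNA is not given in the sources used here.

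Lists tied to the known biology of Fer2 in adult brains held small numbers of members. Of 14 circadian clock genes, 3 had one (21.4%, 95% Wilson interval 7.57 to 47.6): sgg, a kinase gene (264), Pdp1, a leucine zipper factor gene (123), and dco (85.5), which replicate 2 lacked. Of 11 dopamine genes, 0 had one (upper bound 25.9%), although 5 of the 11 had an upstream summit among all pooled peaks. Of 17 synaptic and neuronal genes 1 had one, elav, which encodes an RNA-binding protein of neurons (FBgn0260400, X 523314 to 523660). It had 597, or 299 in replicate 3 and 301 in replicate 2, 239 bp upstream and inside a gene on the opposite strand. With the highest peaks of replicate 2 alone, 2 of the 17 had a member. Homeotic and homeodomain factors had 2 of 46, tin (182) and bcd (118), the heart and the anterior determinants. Muscle genes had 2 of 16, sls (243) and Act87E (84.1), both more than 250 bp upstream. Polycomb and trithorax group genes had 2 of 26, ph-p and Psc (80.3). Using the highest peaks of replicate 3 alone, 0 genes of that last list had a member, ph-p among those lost. Chemoreceptors had 0 of 180 (upper bound 2.09%) and cuticle proteins 0 of 120 (upper bound 3.10%).

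**Figure D3:**
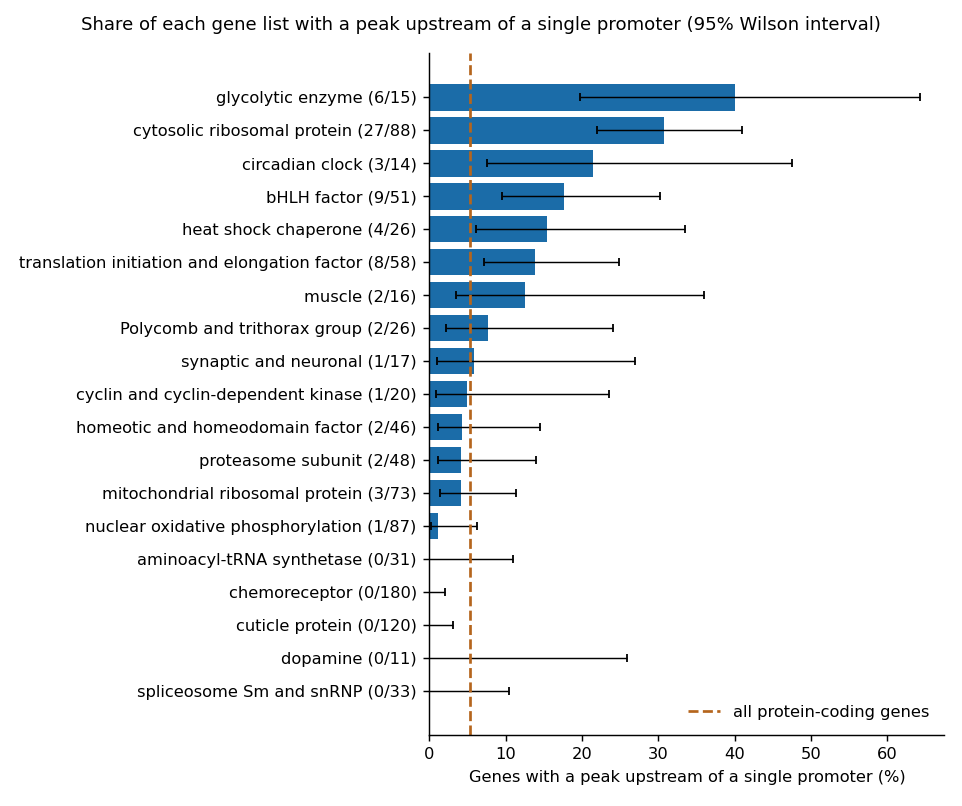
Share of the genes in each list that had a member (x axis, %), with 95% Wilson intervals as error bars and the number of genes with a member over the list size beside each name; the dashed line is the 5.31% of all protein-coding genes. Glycolytic enzymes (40.0%) and cytosolic ribosomal proteins (30.7%) have the longest bars, and chemoreceptors and cuticle proteins have none.

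Weaker peaks of the pooled list add members to several of these groups. With all 30000 pooled peaks, 3098 of 13945 protein-coding genes (22.2%) had an upstream summit under the same rule. The share was 53.3% of glycolytic enzymes, 57.1% of clock genes, 8 of 16 muscle genes, 45.5% of dopamine genes (5 of 11), 40.9% of ribosomal proteins and 39.2% of bHLH genes. It was 42.3% of heat shock chaperones, 40.0% of cyclins and their kinases and 38.5% of Polycomb and trithorax group genes. For translation factors it was 37.9% and for homeotic and homeodomain factors 34.8%. Below 22.2% were proteasome subunits (18.8%), oxidative phosphorylation (18.4%), synaptic and neuronal genes (17.6%), aminoacyl-tRNA synthetases (12.9%) and mitochondrial ribosomal proteins (9.59%). The share was 6.06% of spliceosome genes, 5.56% of chemoreceptors and 11.7% of cuticle proteins.

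At the summits the DNA was poor in G and C. GC content within 50 bp was 32.8% ± 9.36 at the summit, 38.0% ± 10.7 in an equal window centred 250 bp farther from the gene, and 46.9% ± 8.79 in one centred 250 bp towards the gene (SD, n = 788 members each). At divergent promoters the summit had 29.2% ± 8.82 (SD, n = 571 peaks), and at or past the start 35.4% ± 9.80 (SD, n = 238 peaks). In 21-bp windows around the summit, mean GC content of members was lowest, 31.1%, 40 bp on the side away from the gene. Seen from the start site, promoters with a member had their lowest mean, 32.79%, 180 bp upstream and their highest, 48.88%, 20 bp downstream. Single promoters without a reproducible peak, 9339 first starts of genes, were lowest at 220 bp upstream, at 36.82%. Over the whole 200 bp upstream both kinds had a similar content, 40.5% ± 8.66 with a member (SD, n = 771 start sites) and 39.6% ± 9.14 without (SD, n = 9339).

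**Figure D4:**
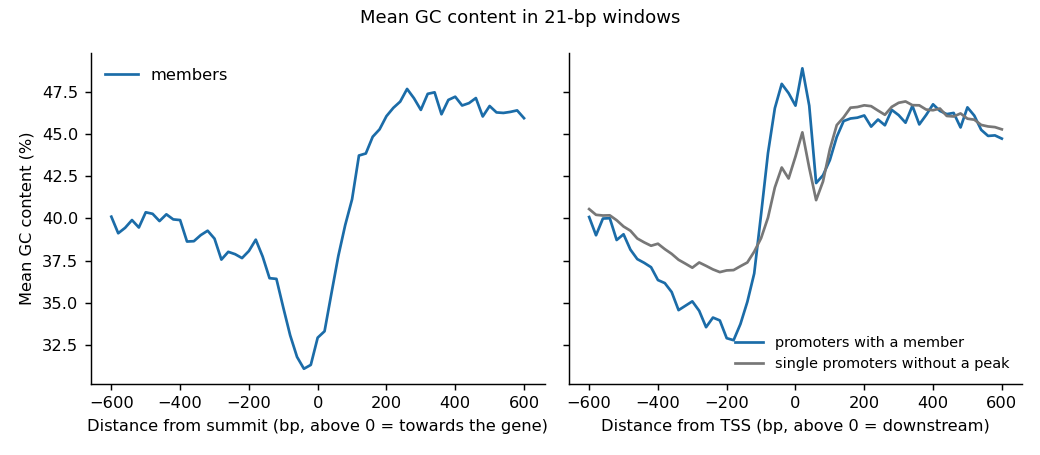
Mean GC content (y axis, %, not from 0) in 21-bp windows by distance from the summit of the 788 members (left, positive towards the gene) and by distance from the TSS (right, positive downstream) for 771 promoters with a member and 9339 single promoters without a reproducible peak. The dip upstream of the start reaches 32.79% with a member and 36.82% without, and the peak at the start is higher with a member.

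The words that these sites hold were searched on both strands, 24 in all. The first set was the E-box CANNTG and its 10 forms, every pair of bases in the middle counted with its reverse complement. Core promoter words were the TATA box TATAAA, the DRE word TATCGATA, a further core motif written GGTCACAC, and the initiator core TCAGT. Words bound by known factors were CGATA, the core bound by BEAF and also found inside the DRE, GAGAG for the GAGA factor, TAATTA for homeodomain proteins, GATAAG for GATA factors, CAGGTAG for Zelda, TGANTCA for the AP-1 factors and GGGCGG for the Sp/KLF family. The last words were the simple repeat CACACA and a run of 6 A. A word was called different at an adjusted p below 0.05 (Benjamini-Hochberg over the 24). A match describes the letters, not binding, and these tests are over peaks or promoters of 1 group, not over embryo collections.

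Against the flank away from the gene, the E-box and the GAGA word were less frequent at the summit and the TATA word more frequent. The calls were 1 of 24 words higher (4.17%) and 2 of 24 lower (8.33%). CANNTG lay within 50 bp of 30.8% of member summits (95% Wilson interval 27.7 to 34.1), against 38.8% of flanks (35.5 to 42.3), a ratio of 0.794 (exact McNemar test, two-sided, adjusted p = 0.00778). In the highest peaks of replicate 3 alone the ratio was 0.892 (adjusted exact p = 0.305), and in the 1431 highest reproducible peaks 0.853 (adjusted exact p = 0.300). GAGAG was at 9.01% of summits and 18.4% of flanks, a ratio of 0.490 (adjusted exact p = 1.41e-06). TATAAA was at 25.3% of summits and 17.9% of flanks, a ratio of 1.41 (adjusted exact p = 0.00571). That call was lost with replicate 3 alone (ratio 1.28, adjusted exact p = 0.0987), with a 250 bp limit (1.27, adjusted exact p = 0.133) and with 25 bp each side (1.29, adjusted exact p = 0.331). It held with replicate 2 alone (1.60, adjusted exact p = 3.06e-05), among the 1431 highest peaks (1.81, adjusted exact p = 1.28e-04) and against the flank towards the gene (3.62, adjusted exact p = 1.96e-21). Neither the DRE (2.54% at summits, 1.14% in flanks, adjusted exact p = 0.179) nor CGATA (17.8% at summits, 12.9% in flanks, adjusted exact p = 0.0675) passed. Over all 2862 reproducible summits the shares were 32.4% for CANNTG, 8.67% for GAGAG and 25.5% for TATAAA, close to those of members. GC content was lower at the summits than in these flanks (values above), and its part in these shares was not tested.

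Members with and without an E-box had like signal values. The median was 130 for the 243 members with one and 129 for the 545 without. It was present in 31.2% of the upper 394 members by signal value and in 30.5% of the other 394. Among the 20 highest, 6 held one.

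A search over every word of 6 bases, each counted with its reverse complement, gave 45 words that were more frequent at the summit than in the flank away from the gene (2.16%) and 53 that were less frequent (2.55%). Of the 45, 43 held at most 2 G or C, and 22 held none. Of the 53, 41 held at least 4 G or C. Over every such word, those with at most 2 and those with at least 4 G or C are equally many, 720 each. The leading word was AAATAT, at 37.7% of summits and 22.0% of flanks (adjusted exact p = 3.66e-08). Among those that were less frequent was GAGAGC, at 2.16% of summits and 9.39% of flanks (adjusted exact p = 7.53e-07). Against the flank towards the gene, which reaches into the transcribed part, 318 were more frequent and 573 less, and all 45 of the first set and 45 of the 53 were called in the same direction there.

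Compared with the peaks between divergent promoters, members held 2 words less often. No word was more frequent (0%, 0 of 24), and 2 were less frequent (8.33%). TATAAA was at 25.3% of member summits and 32.7% of divergent ones (two-sided Fisher's exact test, odds ratio 0.694, adjusted p = 0.0338). TAATTA was at 9.39% of member summits and 16.6% of divergent ones (odds ratio 0.519, adjusted Fisher's exact p = 0.00202). Within 25 bp of the summit neither passed (adjusted exact p = 0.120 for both), at ratios of shares of 0.710 for TATAAA and 0.629 for TAATTA, against 0.771 and 0.564 within 50 bp. Among the 1431 highest peaks TATAAA did not pass (ratio 0.835, adjusted exact p = 0.241). Compared with the peaks at or past the start, 0 of 24 words were more frequent (0%) and 1 was less frequent (4.17%), the E-box form CAGCTG, at 3.05% of member summits and 8.82% of the others (odds ratio 0.325, adjusted Fisher's exact p = 0.0100). The ratio of shares of CAGCTG was 0.345 there and 0.176 within 25 bp. GC content of the summits differed between these classes too, and so did their distance from the start. That distance was a median of 178 bp for members, 107 bp between divergent promoters and 78.5 bp at or past the start. CAGCTG lay in the last 50 bp before the start in 3.58% of single promoters without a reproducible peak. Between 300 and 250 bp upstream it was in 1.61% of them. The part of GC content and of distance in these shares was not tested.

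Promoters with a member carried GAGA words more often than single promoters without a reproducible peak. In the 200 bp directly upstream of the start, 2 of 24 words were more frequent with a member (8.33%) and 4 less frequent (16.7%). GAGAG was in 38.3% of 771 promoters with a member and 24.3% of 9339 without (two-sided Fisher's exact test, odds ratio 1.93, adjusted p = 5.99e-15). The promoters of elav, gish and Ptpmeg2 printed above were picked because they hold the word. The members at these starts lay 239, 170 and 191 bp upstream. With members limited to 250 bp the call was lost (values below). CAGCTG was in 13.2% with a member (102 of 771) and in 934 of 9339 without (odds ratio 1.37, adjusted exact p = 0.0309). Less frequent were CAAATG (13.2% with a member, 18.9% without, odds ratio 0.655, adjusted exact p = 8.60e-04), CANNTG as a whole (56.8% with a member, 61.9% without, adjusted exact p = 0.0309), GATAAG (11.7% with a member, 15.3% without, adjusted exact p = 0.0309) and CACCTG (4.41% with a member, 6.75% without, adjusted exact p = 0.0401). CACCTG did not pass with replicate 3 alone (adjusted exact p = 0.0565) or replicate 2 alone (adjusted exact p = 0.0938). GATAAG did not pass with replicate 3 alone (adjusted exact p = 0.0565), nor CANNTG with replicate 2 alone (adjusted exact p = 0.0531). Among the 1431 highest peaks GAGAG was the 1 word of these 6 that passed, and CAAATG had a ratio of shares of 0.746 (adjusted exact p = 0.0860).

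The 2 sides of this comparison differ in which start of a gene they use: the promoters without a peak were all first starts while 248 of the 771 with a member were later ones. GAGAG was in 32.1% of the 523 first starts with a member and in 51.2% of the 248 later ones. With first starts only, an alternative added after the data were seen, GAGAG kept its call at a ratio of shares of 1.32 (adjusted exact p = 0.00220), against 1.57 with all starts. CAAATG kept its call as well (ratio 0.709, adjusted exact p = 0.0174), and the other 4 words did not pass. For CANNTG and CACCTG the ratio hardly moved (0.917 with first starts and 0.917 with all, and 0.652 with first starts and 0.654 with all), while fewer promoters were tested. The ratio was 1.20 with first starts and 1.32 with all for CAGCTG, and 0.852 with first starts and 0.764 with all for GATAAG. The GAGAG call was lost when members were limited to 250 bp (ratio 1.19, adjusted exact p = 0.0805). The 2 kinds of start differed in other words too: TATAAA was in 38.2% of first starts and 23.8% of later ones, and CANNTG lay at 27.5% of summits before first starts and 37.8% of those before later ones, values that were not tested.

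The GAGA and TATA words were found at different places in promoters with a member. These profiles, in 50-bp bins, were chosen after the tests above and are described only. Between 100 and 50 bp upstream of the start, GAGAG was in 20.5% of promoters with a member (95% Wilson interval 17.8 to 23.5), in 15.9% of the first starts with a member (13.0 to 19.2) and in 8.83% of promoters without (8.28 to 9.43). It was scarce at the summit itself, in 4.57% and 4.44% of the bins on either side of it, and reached 15.0% between 100 and 150 bp from the summit towards the gene. TATAAA in the last 50 bp before the start, where a TATA box lies, was in 5.71% of promoters with a member (4.28 to 7.57), in 5.74% of first starts with one (4.05 to 8.07) and in 15.1% of promoters without (14.4 to 15.8). Farther out, between 200 and 150 bp upstream, the order was the other way, 14.5% with a member and 9.50% without. Mean GC content differed at these places as well. At 40 bp upstream it was 47.96% with a member and 43.01% without. At 180 bp upstream it was 32.79% with a member and 36.94% without. The part of GC content in these shares was not tested.

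**Figure D5:**
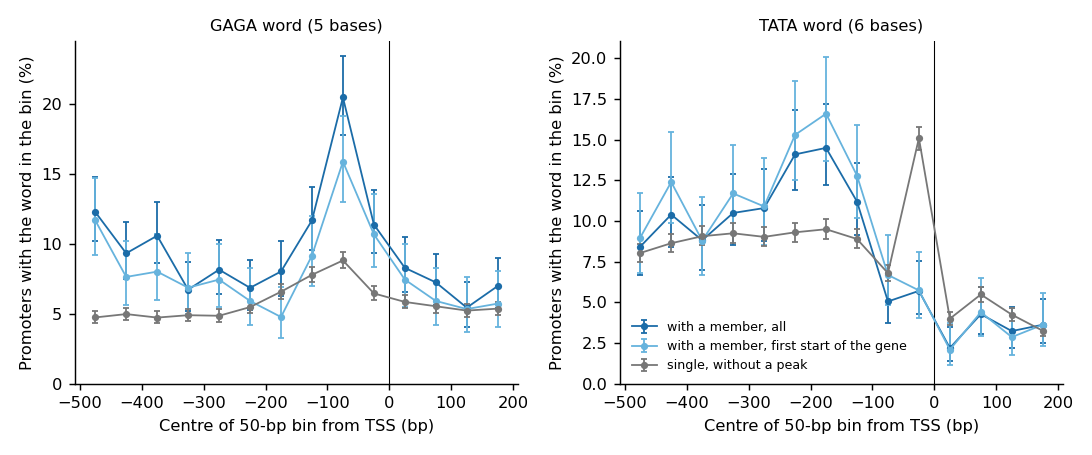
Share of promoters with the GAGA word (left) and the TATA word (right) in 50-bp bins (y axis, %) by distance of the bin centre from the TSS (x axis, bp), with 95% Wilson intervals, for all 771 promoters with a member, the 523 of these that are the first start of their gene, and 9339 single promoters without a reproducible peak. The GAGA word peaks at 20.5% with a member against 8.83% without, and the TATA word next to the start is at 5.71% with a member against 15.1% without.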

How the data were processed

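ChIP-seq peaks came from 4 lists on dm6 deposited by the authors, 1 per replicate, 1 from the pooled replicates and 1 thresholded for irreproducible discovery rate, the reproducible list. The caller, its settings and the threshold: not given in the sources used here. Every list holds a signal value, a score deposited by the authors, and a −log10 q-value deposited by the authors, 3.83 at every reproducible peak and so not used. The lists hold no read counts, so depth is unknown. One control alignment was shared, per the files deposited with the lists.

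Genes came from Ensembl release 115 and sequence from RefSeq Release 6 (dm6). Coordinates are 1-based. Where several genes were equally near a summit (19 members), a start that the summit was upstream of was taken first, and then gene ID decided. This order favours membership. Of the members, 4 shared an interval with another summit and 2 had their summit outside the interval, and all were kept. Members overlapped by the same replicate peaks were each counted. The gene lists (19, with 960 entries found) were made from symbols and symbol patterns, some corrected after the annotation was seen. Members and lists were chosen with earlier results of these data known. Genes named were those of the 20 highest members, the highest on each arm, the 3 nearest inside and outside the limit, and up to 4 of each list; others were named after their values were seen.

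Tests used Python 3.11.15 with scipy 1.17.1 and were checked on simulated data. The simulated sets had the same base composition, so the check does not cover windows that differ in GC content. Intervals are Wilson intervals at 95%. Alternatives changed the list, limit, window, flank and controls.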

Additional observations from a re-analysis of the deposited data

How the results depend on the processing

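The count of 788 members was 792 with the highest peaks of replicate 3 alone and 781 with those of replicate 2, and 430 among the 1431 highest reproducible peaks. There the genes with a member over all lists numbered 36, against 71 in the full list. The numbers of words called were small and moved with the settings. At the summit, 1 word was higher in the main setting, 2 and 2 without replicate 2 or replicate 3 (range 2 to 2), 0 with a 250 bp limit, 0 with 25 bp each side and 6 against the flank towards the gene, where 8 were lower. Against divergent promoters, 2 were higher and 1 lower among the 1431 highest peaks, and 0 lower with 25 bp each side. In promoters, higher and lower calls numbered 1 and 0 among the 1431 highest peaks, 0 and 2 with a 250 bp limit, 6 and 7 against promoters that also lack a pooled summit, and 1 and 1 with first starts only (added after the data were seen). In promoters, CANNTG (ratio 0.930), CACCTG and GATAAG each lost their call without 1 of the replicates, as given above. Over 6-base words the flank towards the gene gave 318 higher and 573 lower. Overlap with replicate 3 was 88.3% when only its highest peaks counted, and overlap with replicate 2 was 85.2% then and 99.0% when 50% of the narrower peak had to be shared. The cause of these moves was not tested, except that the shorter list holds fewer peaks. No ratio of word shares changed direction under the alternatives run. The share of genes with a member went to 0 for Polycomb and trithorax genes without replicate 2. It also went to 0 for muscle genes with a 250 bp limit. Each fell from 2 genes, and thus to below the 5.31% of all genes in the main setting. Proteasome subunits and nuclear oxidative phosphorylation genes were below that share already. They went to 0 among the 1431 highest reproducible peaks. No paired analysis was possible because the 2 replicates form 1 group. Depth is unknown.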
